A study of Mus musculus with 89 samples.

Results

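The nuclear genes for the subunits of mitochondrial respiratory complexes II to V were followed through liver and hepatocyte RNA. Members were the protein-coding genes whose symbol begins with Sdha to Sdhd, Uqcr, Cox4 to Cox8 or Atp5, without pseudogenes. The rule took 47 of the 42687 genes in tables keyed by Ensembl identifier and 47 of the 23306 in tables keyed by RefSeq symbol. By symbol, complex II held 4 members, complex III 8, complex IV 18 and complex V 17. By role, 37 were structural subunits of the forms used in most tissues, 7 were tissue-restricted isoforms and 3 were other genes, namely Cox7a2l, Atp5s and Atp5sl.

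Complexes I to IV of the inner mitochondrial membrane pass electrons from nutrients to oxygen, and complex V uses the resulting proton gradient to make ATP. Complex II, succinate dehydrogenase, is also an enzyme of the tricarboxylic acid cycle and is built from nuclear genes alone, whereas complexes III, IV and V combine nuclear subunits with subunits of the mitochondrial genome. Hepatocytes hold many mitochondria and use their ATP for urea synthesis and gluconeogenesis.

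The series measured RNA in whole mouse livers and in primary hepatocytes, in 89 samples of 23 groups. Tumour groups (Tb) were C57BL/6 mice 3 weeks after subcutaneous B16F10 melanoma cells (n = 3) or B16F1 melanoma cells (n = 5), and BALB/c mice 4 weeks after K7M2 osteosarcoma cells in the tibia (n = 5) or 67NR or 4T1 mammary carcinoma cells in the mammary fat pad (n = 3 each). As background, B16F10 was selected from the B16 melanoma for spread to the lung, which B16F1 reaches less, and 67NR shares its tumour of origin with 4T1 but seldom spreads. Each was set against mice of its strain given the same volume of PBS by the same route, in groups of equal size (PBS-1 for B16F10, PBS-4 for B16F1, PBS-2 for K7M2, PBS-3 for 67NR and PBS-5 for 4T1).

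The second set of mice had no tumour cells and received 10 µg of extracellular vesicles and particles (EVPs) in 100 µl of PBS by vein on alternate days for 4 weeks. The labels do not spell out TE and CL, read here as tumour explants for TE-EVPs and cell lines for CL-EVPs. C57BL/6 mice received TE-EVPs or CL-EVPs of B16F10 (n = 5 each, against PBS-6 for TE-EVPs and PBS-8 for CL-EVPs), and BALB/c mice those of K7M2 (n = 3 each, both against PBS-7). Exomeres, which are particles without a membrane, small exosomes (Exo-S) and large exosomes (Exo-L) of B16F10 went to C57BL/6 mice (n = 4 each), and these 3 groups shared the control PBS-10. PBS mice received 100 µl of PBS on the same schedule. Wild-type primary hepatocytes were kept with TNFα for 24 hours (n = 3) or with PBS for 24 hours (n = 3), at a TNFα concentration not given in the labels. Each tumour or EVP type rests on a single cell line, and the labels give no age or sex of the mice. They also do not say whether replicates are separate animals or cultures, so the p-values measure the spread between these samples, which may be technical.

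The values come from 13 deposited DESeq2 tables, 1 for each treated group, which hold no values per sample. A fold is a log2 fold of treated over PBS, the value after ± is the authors' standard error, and base mean is the mean normalised count over all samples of a fit. A gene was called higher or lower where the authors' adjusted p was under 0.05, and counted as tested where it had an adjusted p. The sum of base means in the authors' deposited tables lay between 17755505 and 51511130, and depth per sample is unknown. Whether groups overlapped in any gene could therefore not be seen. In whole liver, fewer cells of a type and less RNA per cell cannot be told apart.

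Promoter windows are shown for the members called lower in the most tables (Uqcrh, Atp5f1 and Atp5h), for Sdhb as the most often called tumour-table member among those with an NRF1 motif, and for Cox6b2 beside Cox6b1 as a pair with unlike levels. They were taken from RefSeq on GRCm38.p6, whose sequence comes from C57BL/6J, and run over the 250 bases upstream of the annotated start, 5′ to 3′ on the gene's strand. Capitals mark a match to a searched motif. Uqcrh, the hinge protein of complex III, lies on the minus strand (window chr4:116075071-116075320), Atp5f1, the b subunit of the complex V stalk, listed by RefSeq as Atp5pb, on the minus strand (chr3:105959264-105959513), and Atp5h, its d subunit, on the minus strand (chr11:115419920-115420169). Sdhb, the iron-sulfur subunit of complex II, lies on the plus strand (chr4:140961021-140961270), and Cox6b2 and Cox6b1, the testis and somatic forms of complex IV subunit 6b, on the minus strand (chr7:4753095-4753344 and chr7:30626115-30626364).
Uqcrh: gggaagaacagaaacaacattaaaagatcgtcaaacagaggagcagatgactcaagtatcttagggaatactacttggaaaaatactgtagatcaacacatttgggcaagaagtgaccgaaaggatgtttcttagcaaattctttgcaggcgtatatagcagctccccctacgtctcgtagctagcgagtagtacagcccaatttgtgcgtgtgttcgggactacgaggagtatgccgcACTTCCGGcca
Atp5f1: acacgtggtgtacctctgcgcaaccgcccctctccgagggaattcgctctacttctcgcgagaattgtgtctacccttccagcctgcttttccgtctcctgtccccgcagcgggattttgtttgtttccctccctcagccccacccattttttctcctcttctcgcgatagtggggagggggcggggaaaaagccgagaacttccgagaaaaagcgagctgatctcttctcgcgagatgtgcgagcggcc
Atp5h: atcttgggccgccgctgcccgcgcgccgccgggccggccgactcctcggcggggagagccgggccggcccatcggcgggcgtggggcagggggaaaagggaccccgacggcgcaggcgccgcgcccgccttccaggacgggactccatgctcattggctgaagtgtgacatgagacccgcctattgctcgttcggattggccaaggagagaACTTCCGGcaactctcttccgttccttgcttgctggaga
Sdhb: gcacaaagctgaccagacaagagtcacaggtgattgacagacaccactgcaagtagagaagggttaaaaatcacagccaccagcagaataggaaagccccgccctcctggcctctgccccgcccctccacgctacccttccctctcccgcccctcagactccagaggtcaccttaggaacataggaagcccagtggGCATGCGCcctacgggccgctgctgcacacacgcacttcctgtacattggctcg
Cox6b2: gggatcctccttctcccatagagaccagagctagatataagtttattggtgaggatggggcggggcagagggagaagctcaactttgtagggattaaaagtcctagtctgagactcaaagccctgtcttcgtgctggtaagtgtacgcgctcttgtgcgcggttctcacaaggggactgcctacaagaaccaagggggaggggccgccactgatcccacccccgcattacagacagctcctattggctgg
Cox6b1: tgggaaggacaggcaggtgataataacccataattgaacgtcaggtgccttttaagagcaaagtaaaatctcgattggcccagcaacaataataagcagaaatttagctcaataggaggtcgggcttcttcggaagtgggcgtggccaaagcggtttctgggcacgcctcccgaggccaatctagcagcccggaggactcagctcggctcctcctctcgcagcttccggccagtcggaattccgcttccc

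Of the 47 members, 37 had a RefSeq promoter, and 10 of those held at least 1 of the 5 motifs searched on both strands. The NRF1 motif GCATGCGC was in 5 (13.5%, against 2.32% of 27025 promoters of all genes), namely Sdhb, Cox6a1, Atp5g2, Atp5k and Atp5l. The ETS motif CCGGAAGT, read by GABPA, was in 3 (8.11% against 2.93%), namely Uqcrh, Uqcr11 and Atp5h. In Uqcrh it spans bases 4 to 11 upstream of the RefSeq start, in Atp5h bases 32 to 39, and the NRF1 match of Sdhb spans bases 47 to 54. The ERR motif TCAAGGTCA was in Atp5g3 (2.7% against 0.366%), the CRE TGACGTCA in Uqcrfs1 (2.7% against 1.62%), and the YY1 motif AAGATGGCG in none (0% against 0.607%). Motifs with no match included every one of the 5 for Atp5f1, the most often called member, and for both Cox6b genes. A match is a run of letters and not a measured binding site.

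The genes were scattered over 18 chromosomes, with at most 7 on one, chromosome 7. In GENCODE vM21 on GRCm38, Sdhb spans chr4:140961203-140979193, Uqcrh chr4:116066965-116075071, Atp5f1 chr3:105942698-105960099, Atp5h chr11:115415689-115419962, Cox6b1 chr7:30616861-30626151 and Cox6b2 chr7:4751792-4753094. For Sdhb, Uqcrh, Atp5h and Cox6b1 the RefSeq start lies inside the GENCODE gene, so that the window overlaps the gene at its downstream end. The marked matches of Sdhb and Atp5h lie within that overlap, downstream of the GENCODE start, and that of Uqcrh lies upstream of it. The Atp5f1 window lies wholly inside the GENCODE gene, whose annotated start is further upstream.

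Per kilobase of transcript, the catalytic F1 beta subunit Atp5b had the highest base mean of the members in 12 of the authors' 13 deposited tables, from 10080 in B16F1-Tb to 31210 in hepatocytes. In the K7M2-Tb table the small complex III subunit Uqcrq came first at 12150 per kilobase, ahead of Atp5b at 9355. The alpha subunit Atp5a1, the c-ring gene Atp5g3 and Cox4i1, the ubiquitous subunit 4 of cytochrome c oxidase, were among the next in most tables. Each table was normalised on its own, so levels were not tested across tables.

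No member was called higher in any of the authors' 13 deposited DESeq2 tables, and 230 of 547 tested combinations of member and table were called lower. The matching share over all genes was counted per table only. Without adjustment, DESeq2 p-values under 0.05 on the higher side belonged to 1 member in each of 3 of these tables. They were Cox5a in K7M2-TE-EVPs (0.13 ± 0.07), Atp5sl in B16F10-CL-EVPs (0.14 ± 0.11) and Cox6b2 in Exo-L (0.27 ± 0.46) of the authors' deposited tables. Counts called lower come from the authors' deposited tables throughout. Those of all members in a table are given with the share of all tested genes called in each direction. Counts by complex, of most other lists and of cell markers stand without that share, and are to be read against that of the same table.

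**Figure D1:**
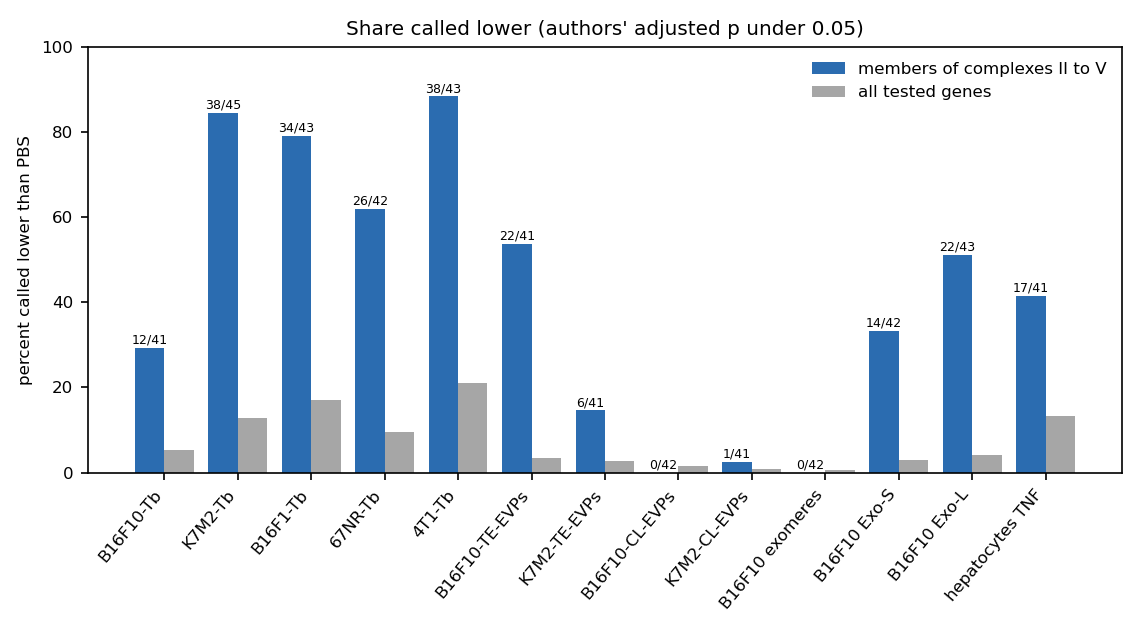
Percent of tested members (left bar of each pair, with the count above it) and of all tested genes (right bar) called lower than PBS in each of the authors' deposited tables. The member bar reaches 88.4% in 4T1-Tb and 84.4% in K7M2-Tb, and is 0 in B16F10-CL-EVPs and exomeres.

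In tumour-bearing mice, most members were lower in 4 of the 5 tables. In 4T1-Tb livers 38 of 43 tested members were lower, where 21% of 15272 genes were called lower and 22.4% higher. In K7M2-Tb livers 38 of 45 were lower, against 12.9% of 17350 genes lower and 15.1% higher. B16F1-Tb livers had 34 of 43 lower, against 17.1% of 17556 genes lower and 17.2% higher. For 67NR-Tb livers the count was 26 of 42, against 9.42% of 12329 genes lower and 9.14% higher. B16F10-Tb livers had 12 of 41 lower, against 5.25% of 13031 genes lower and 6.48% higher.

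The member median log2 fold in the authors' deposited tables was -0.47 in 4T1-Tb, -0.49 in K7M2-Tb, -0.41 in B16F1-Tb, -0.23 in 67NR-Tb and -0.35 in B16F10-Tb. The medians of all tested genes in those tables lay between -0.016 and 0.007. The smaller count in B16F10-Tb went with larger errors, since the median standard error of its members was 0.179, against 0.108 in 4T1-Tb, 0.111 in K7M2-Tb, 0.0988 in B16F1-Tb and 0.0827 in 67NR-Tb. Folds of K7M2-Tb and B16F1-Tb are shrunken toward 0 by the authors, while those of the other 3 tables are not.

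**Figure D2:**
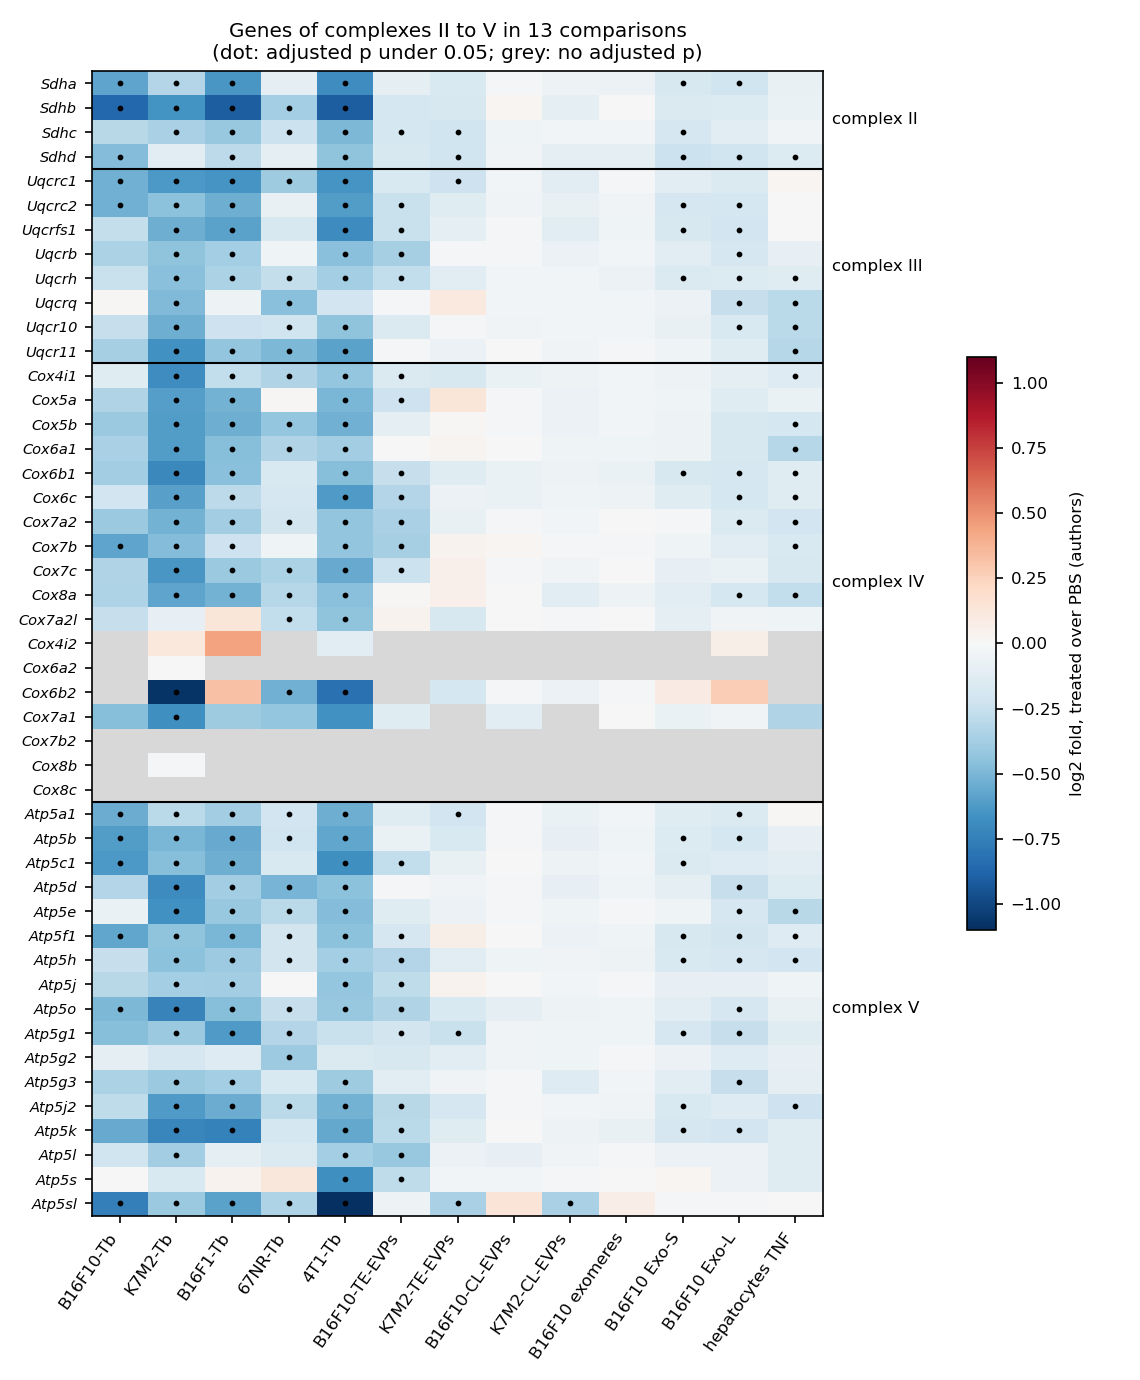
Log2 fold of treated over PBS from the authors' deposited tables, members in rows by complex and treated groups in columns. A dot marks an adjusted p under 0.05 and grey no adjusted p. The 5 tumour columns hold the deepest falls, and the columns of B16F10-CL-EVPs and exomeres have no dot.

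Complex II, the 4 subunits of succinate dehydrogenase, fell most through Sdhb. Sdhb was at -0.90 ± 0.12 in 4T1-Tb (adjusted p = 9.73e-14), -0.66 ± 0.10 in K7M2-Tb (1.23e-11), -0.90 ± 0.13 in B16F1-Tb (2.21e-11), -0.37 ± 0.09 in 67NR-Tb (0.000571) and -0.86 ± 0.20 in B16F10-Tb (0.000699) of the authors' deposited tables. The flavoprotein Sdha, which binds succinate, fell in 4 of these, with -0.68 in 4T1-Tb, -0.32 in K7M2-Tb, -0.64 in B16F1-Tb (adjusted p = 9.43e-29) and -0.58 in B16F10-Tb. In 67NR-Tb it stood at -0.10 ± 0.07 in the authors' deposited table, which did not pass. The membrane anchors Sdhc and Sdhd were called lower in 4 and 3 tumour tables, where Sdhd at -0.12 ± 0.08 did not pass in K7M2-Tb.

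Complex III, which passes electrons to cytochrome c, had all 8 members lower in K7M2-Tb, 7 of 8 in 4T1-Tb, 6 in B16F1-Tb, 5 in 67NR-Tb and 2 in B16F10-Tb. The core protein Uqcrc1 was the member of smallest adjusted p in the authors' deposited K7M2-Tb table (-0.63 ± 0.09, adjusted p = 3.95e-13) and fell in all 5 tumour tables. Its partner Uqcrc2 fell to -0.61 in 4T1-Tb, -0.45 in K7M2-Tb, -0.53 in B16F1-Tb and -0.53 in B16F10-Tb, and was -0.08 ± 0.07 in 67NR-Tb, which did not pass, per the authors' deposited tables. The Rieske iron-sulfur protein Uqcrfs1 fell in 3 of them, with -0.69 in 4T1-Tb, -0.54 in K7M2-Tb and -0.59 in B16F1-Tb. The small subunit Uqcrq was uneven: it fell to -0.49 in K7M2-Tb and -0.46 in 67NR-Tb, but was 0.01 in B16F10-Tb, -0.06 in B16F1-Tb and -0.21 in 4T1-Tb of the authors' deposited tables, none of which passed.

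Complex IV, cytochrome c oxidase, had all 10 of its common structural subunits lower in 4T1-Tb, K7M2-Tb and B16F1-Tb, 6 of 10 in 67NR-Tb and 1 of 10, Cox7b, in B16F10-Tb. In the authors' deposited K7M2-Tb table Cox4i1 was at -0.68 ± 0.11 (adjusted p = 4.61e-10), Cox5a at -0.61 ± 0.09 (1.18e-11) and Cox6b1 at -0.71 ± 0.11 (3.69e-11). The same genes stood at -0.43, -0.50 and -0.47 in 4T1-Tb and at -0.27, -0.52 and -0.46 in B16F1-Tb, all called lower by the authors' deposited tables. In B16F10-Tb they were at -0.13, -0.33 and -0.38 in the authors' deposited table and did not pass, with errors of 0.14, 0.20 and 0.18. The liver forms Cox6a1 and Cox7a2 fell in 4 tumour tables each, all except B16F10-Tb. The supercomplex factor Cox7a2l, which joins complexes III and IV, fell in 67NR-Tb (-0.27) and 4T1-Tb (-0.44) and was 0.13 in B16F1-Tb of the authors' deposited tables, where it did not pass.

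Complex V, ATP synthase, had 15 of 17 members lower in 4T1-Tb, 15 of 17 in K7M2-Tb, 14 of 17 in B16F1-Tb, 11 of 17 in 67NR-Tb and 6 of 17 in B16F10-Tb. Atp5s and Atp5sl are counted here by symbol and are not structural subunits. Without them the counts were 13 of 15, 14 of 15, 13 of 15, 10 of 15 and 5 of 15, in that order. The F1 head genes Atp5a1, Atp5b and Atp5c1 stood at -0.54, -0.57 and -0.67 in 4T1-Tb, at -0.29, -0.50 and -0.46 in K7M2-Tb, and at -0.39, -0.56 and -0.54 in B16F1-Tb of the authors' deposited tables, and all were called. In B16F10-Tb they were at -0.54, -0.61 and -0.63, and Atp5c1 had the smallest adjusted p of all members in that deposited table of the authors (3.02e-05). In 67NR-Tb they were at -0.21, -0.22 and -0.17 in the authors' deposited table, and Atp5c1 did not pass.

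The stalk genes that hold F1 in place moved as well. Atp5f1 was the member called lower in the most tables, 9 of 13, and Atp5o, the OSCP that joins stalk and head, fell in all 5 tumour tables, down to -0.74 ± 0.11 in the authors' deposited K7M2-Tb table. In the membrane part, the e subunit Atp5k fell to -0.56 in 4T1-Tb, -0.72 in K7M2-Tb and -0.74 in B16F1-Tb, per the authors' deposited tables. Atp5sl, named for its likeness to Atp5s, had the deepest fold as deposited, -1.10 ± 0.18 in 4T1-Tb (adjusted p = 3.96e-09), where folds are not shrunken. In K7M2-Tb, whose folds are shrunken, Cox6b2 stood at -1.08 in the authors' deposited table and at -1.15 on the unshrunken scale. Atp5sl also fell to -0.41 in K7M2-Tb, -0.59 in B16F1-Tb, -0.33 in 67NR-Tb and -0.75 in B16F10-Tb of the authors' deposited tables.

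In all, 7 members were lower in all 5 tumour tables: Sdhb, Uqcrc1, Atp5a1, Atp5b, Atp5f1, Atp5o and Atp5sl. A further 17 were lower in 4 of them. How many of all genes were lower in as many tumour tables was not counted, so these overlaps have no background share. In 67NR-Tb the smallest adjusted p-values belonged to the c-ring gene Atp5g2 at -0.40 ± 0.08 (adjusted p = 1.45e-05), Uqcr11 at -0.49 ± 0.10 (7.81e-05), Uqcrc1 at -0.39 ± 0.08 (0.000153) and Uqcrq at -0.46 ± 0.10 (0.000154) in the authors' deposited table. Base means of Atp5g2 and Atp5l depended on the kind of table. Atp5l, the g subunit of complex V, had 206 in K7M2-Tb and 3624 in 4T1-Tb, and Atp5g2 had 382 and 2510, in the authors' deposited tables. Their values are uncertain, and whether reads shared with near-identical copies went elsewhere was not tested.

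In mice given EVPs, members were lower after B16F10-TE-EVPs, Exo-L and Exo-S, in few cases after K7M2 EVPs, and in none after B16F10-CL-EVPs or exomeres. B16F10-TE-EVPs livers had 22 of 41 tested members lower, against 3.37% of 13960 genes lower and 5.23% higher. Exo-L livers had 22 of 43 lower, against 4.1% of 17322 genes lower and 8.65% higher, and Exo-S livers 14 of 42, against 2.92% of 15852 genes lower and 6.84% higher. K7M2-TE-EVPs livers had 6 of 41 lower, against 2.67% of 11820 genes lower and 1.37% higher. After K7M2-CL-EVPs the only member lower was Atp5sl, 1 of 41, against 0.854% of 11820 genes lower and 0.626% higher. DESeq2 called 0 of 42 members lower in B16F10-CL-EVPs livers, where 1.44% of 14426 genes were lower and 2.34% higher, and 4 had an unadjusted p under 0.05 on the lower side. It called 0 of 42 in exomere livers, where 0.67% of 15362 genes were lower and 4.26% higher, and 5 had such an unadjusted p. The smallest adjusted p of a member was 0.126 (Atp5sl) after B16F10-CL-EVPs and 0.0838 (Sdhd, -0.10) after exomeres, in the authors' deposited tables.

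Member medians of the authors' deposited folds were -0.19 after B16F10-TE-EVPs, -0.16 after Exo-L, -0.12 after Exo-S, -0.10 after K7M2-TE-EVPs, -0.06 after K7M2-CL-EVPs, -0.03 after exomeres and -0.02 after B16F10-CL-EVPs. All EVP folds are shrunken, by unlike amounts between tables. On the unshrunken scale the medians were -0.24 after B16F10-TE-EVPs, -0.20 after Exo-L, -0.17 after Exo-S and -0.13 after K7M2-TE-EVPs. They were -0.11 after K7M2-CL-EVPs, -0.07 after exomeres and -0.04 after B16F10-CL-EVPs. The authors fitted exomeres, Exo-S and Exo-L with the same PBS-10 livers, and both K7M2 EVP groups with the same PBS-7 livers, so their values are not independent of each other.

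After B16F10-TE-EVPs the smallest adjusted p-values belonged to small subunits, among them the membrane subunit f Atp5j2 (-0.30 ± 0.05, adjusted p = 4.35e-07), Cox7a2 (-0.36 ± 0.07, 5.15e-07), Atp5h (-0.32 ± 0.06, 1.7e-06) and Uqcrh (-0.27 ± 0.05, 2.01e-06), per the authors' deposited table. Of the larger core genes Uqcrc2 (-0.24), Uqcrfs1 (-0.24) and Atp5c1 (-0.27) also fell, whereas Sdha at -0.10, Sdhb at -0.19, Uqcrc1 at -0.17, Atp5a1 at -0.14 and Atp5b at -0.07 did not pass in the authors' deposited table. Cox4i1 fell to -0.16 and Cox5a to -0.23, and Cox6a1 was -0.00 in the authors' deposited table, without a call.

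After Exo-L and Exo-S, Sdha of succinate dehydrogenase had the smallest adjusted p of the members. In Exo-L livers Sdha was at -0.21 ± 0.05 (adjusted p = 1.26e-05), Atp5g1 at -0.25 ± 0.07 (0.00022), Atp5g3 at -0.26 ± 0.08 (0.000948) and Sdhd at -0.22 ± 0.06 (0.00147) in the authors' deposited table. In Exo-S livers Sdha was at -0.18 ± 0.05 (0.00045), Sdhd at -0.23 ± 0.07 (0.000506), Uqcrc2 at -0.19 ± 0.05 (0.00164) and Cox6b1 at -0.18 ± 0.06 (0.00551) in the authors' deposited table. In exomere livers 5 of these genes, Sdha, Sdhd, Atp5g1, Atp5g3 and Cox6b1, were at -0.06, -0.10, -0.04, -0.03 and -0.07 in the authors' deposited table, and none passed. Complex IV had 4 of 14 tested members lower after Exo-L and 1 of 13 after Exo-S, while complex V had 10 of 17 and 7 of 17 and complex II 2 of 4 and 3 of 4. Counting only structural subunits, complex IV had 4 of 10 and 1 of 10, and complex V 10 of 15 and 7 of 15. Differences between these groups were not tested, because they share controls.

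After K7M2-TE-EVPs, 2 of 4 complex II members, 1 of 8 of complex III, 0 of 12 of complex IV and 3 of 17 of complex V (2 of 15 structural subunits) were lower in the authors' deposited table. These were Atp5sl (-0.36 ± 0.10, adjusted p = 0.000712), Uqcrc1 (-0.23 ± 0.06, 0.00606), Atp5g1 (-0.24 ± 0.08, 0.0143), Sdhc (-0.22 ± 0.08, 0.0243), Atp5a1 (-0.21 ± 0.07, 0.0275) and Sdhd (-0.22 ± 0.08, 0.0316). Complex IV subunits Cox5a, Cox7c and Cox8a stood at 0.13, 0.06 and 0.06 in that deposited table of the authors, without a call. After K7M2-CL-EVPs, Atp5sl was at -0.35 ± 0.15 (adjusted p = 0.006) in the authors' deposited table, next to Sdhb at -0.10, Uqcrc1 at -0.11 and Atp5b at -0.09, which did not pass. Atp5sl went the other way after B16F10-CL-EVPs and exomeres, at 0.14 ± 0.11 and 0.07 ± 0.11 in the authors' deposited tables, also without a call.

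Hepatocytes kept with TNFα had 17 of 41 tested members lower than hepatocytes kept with PBS, against 13.2% of 17488 genes lower and 16.4% higher, with a member median of -0.13 in the authors' deposited table. Small subunits led, with Atp5e, the epsilon subunit of F1, at -0.30 ± 0.07 (adjusted p = 5.01e-06), Uqcr10 at -0.30 ± 0.07 (1.02e-05), Atp5h at -0.21 ± 0.06 (0.000443) and Cox8a at -0.27 ± 0.08 (0.000638) in the authors' deposited table. Complex IV had 8 of 12 tested members lower, complex III 4 of 8, complex V 4 of 17 and complex II 1 of 4. Counting only structural subunits, complex IV had 8 of 10 and complex V 4 of 15. Of the panel of core genes, Cox4i1 (-0.14), Cox6a1 (-0.31) and Cox7a2 (-0.21) were called, whereas Sdha (-0.08), Sdhb (-0.07), Uqcrc1 (0.02), Uqcrc2 (0.01), Uqcrfs1 (0.00), Cox5a (-0.07), Atp5a1 (0.02), Atp5b (-0.09) and Atp5c1 (-0.12) were not, per the authors' deposited table. The cultures also held RNA of Kupffer cell markers, whose 9 genes summed to a base mean of 4232, with 5 lower and 3 higher after TNFα, and their part in the result was not tested. All 8 hepatocyte markers were lower after TNFα, with a median fold of -0.60 in the authors' deposited table.

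In hepatocytes more of the short than of the long transcripts were called, a split of the authors' deposited values by transcript length made after they were seen. Of 24 structural subunits with a median transcript under 1000 bases, 14 were lower, with a median fold of -0.14, against 3 of 13 longer ones, with a median of -0.08. Across the 37 subunits the rank correlation of length and fold was 0.57, and across 13925 tested genes it was 0.08. B16F10-Tb livers ran the other way, with 1 of 24 short subunits lower (median -0.32), against 10 of 13 long ones (median -0.54), and a rank correlation of -0.49 over subunits and -0.06 over 11909 genes. Over subunits the value was also negative in K7M2-TE-EVPs (-0.49), Exo-S (-0.43), B16F1-Tb (-0.40), K7M2-CL-EVPs (-0.35) and 4T1-Tb (-0.31), and positive in K7M2-Tb (0.37). In the other 5 tables it lay between -0.14 and 0.15. Subunits share libraries, and length goes with base mean and error, so these correlations describe the tables and carry no p. Among well expressed genes of all kinds, those with short transcripts had medians of -0.00 in hepatocytes and -0.03 in B16F10-Tb, and those with long transcripts 0.04 and -0.10.

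**Figure D3:**
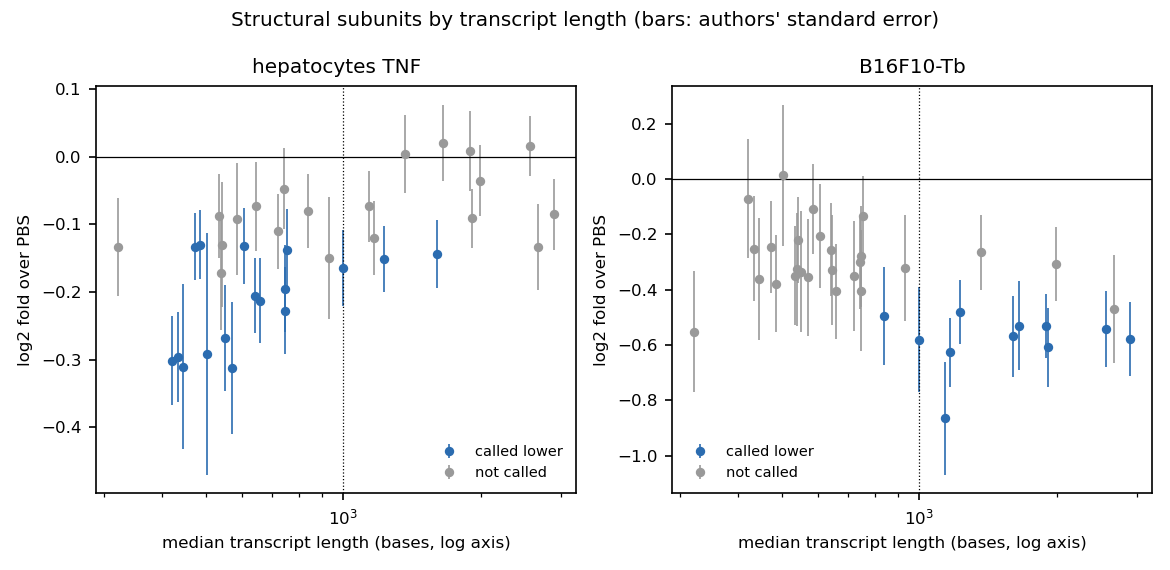
Log2 fold of treated over PBS (vertical axis, bars for the authors' standard error) against median transcript length (log axis) for 37 structural subunits, in hepatocytes with TNFα and in B16F10-Tb livers. Blue marks a call, and the dotted line 1000 bases. Blue points gather left of the line in hepatocytes and right of it in B16F10-Tb.

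Differences between effects were tested for 5 pairs of tables with separate PBS groups, as the difference of both effects over its error with adjustment over all genes tested. Folds the authors had shrunken were first returned to an unshrunken scale from their p-values and errors. The groups of a pair came with their own PBS mice and sizes, and any batch cannot be told apart from the tumour or EVP.

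The metastatic 4T1 tumour went with a deeper fall than the rarely metastatic 67NR tumour in 16 of 42 members, and with a shallower one in 0 (2033 of 12303 genes, 16.5%, had a lower effect in 4T1-Tb, and 15.4% a higher one). Sdha had effects of -0.68 in 4T1-Tb and -0.10 in 67NR-Tb, a difference of -0.58 ± 0.13 (adjusted p = 3.77e-05). Uqcrc2 (-0.54 ± 0.12, 9.02e-05), Cox5a (-0.52 ± 0.13, 0.00049) and Uqcrfs1 (-0.51 ± 0.13, 0.000781) followed. The median difference was -0.24 over members and -0.038 over all genes. By an unadjusted p under 0.05, 19 of 42 members differed.

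K7M2 tumours went with a deeper fall than K7M2-TE-EVPs in 30 of 41 members and a shallower one in 0, where 8.34% of 11528 genes had a lower and 10.2% a higher effect in K7M2-Tb. Cox5a had effects of -0.64 in K7M2-Tb and 0.16 in K7M2-TE-EVPs, a difference of -0.80 ± 0.11 (adjusted p = 3.05e-10). Atp5f1 (-0.54 ± 0.11, 1.02e-05), Cox8a (-0.71 ± 0.15, 3.02e-05) and Cox6b1 (-0.60 ± 0.13, 7.37e-05) came next. In complex II, Sdhb differed by -0.50 ± 0.12, while Sdha, Sdhc and Sdhd were not called.

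**Figure D4:**
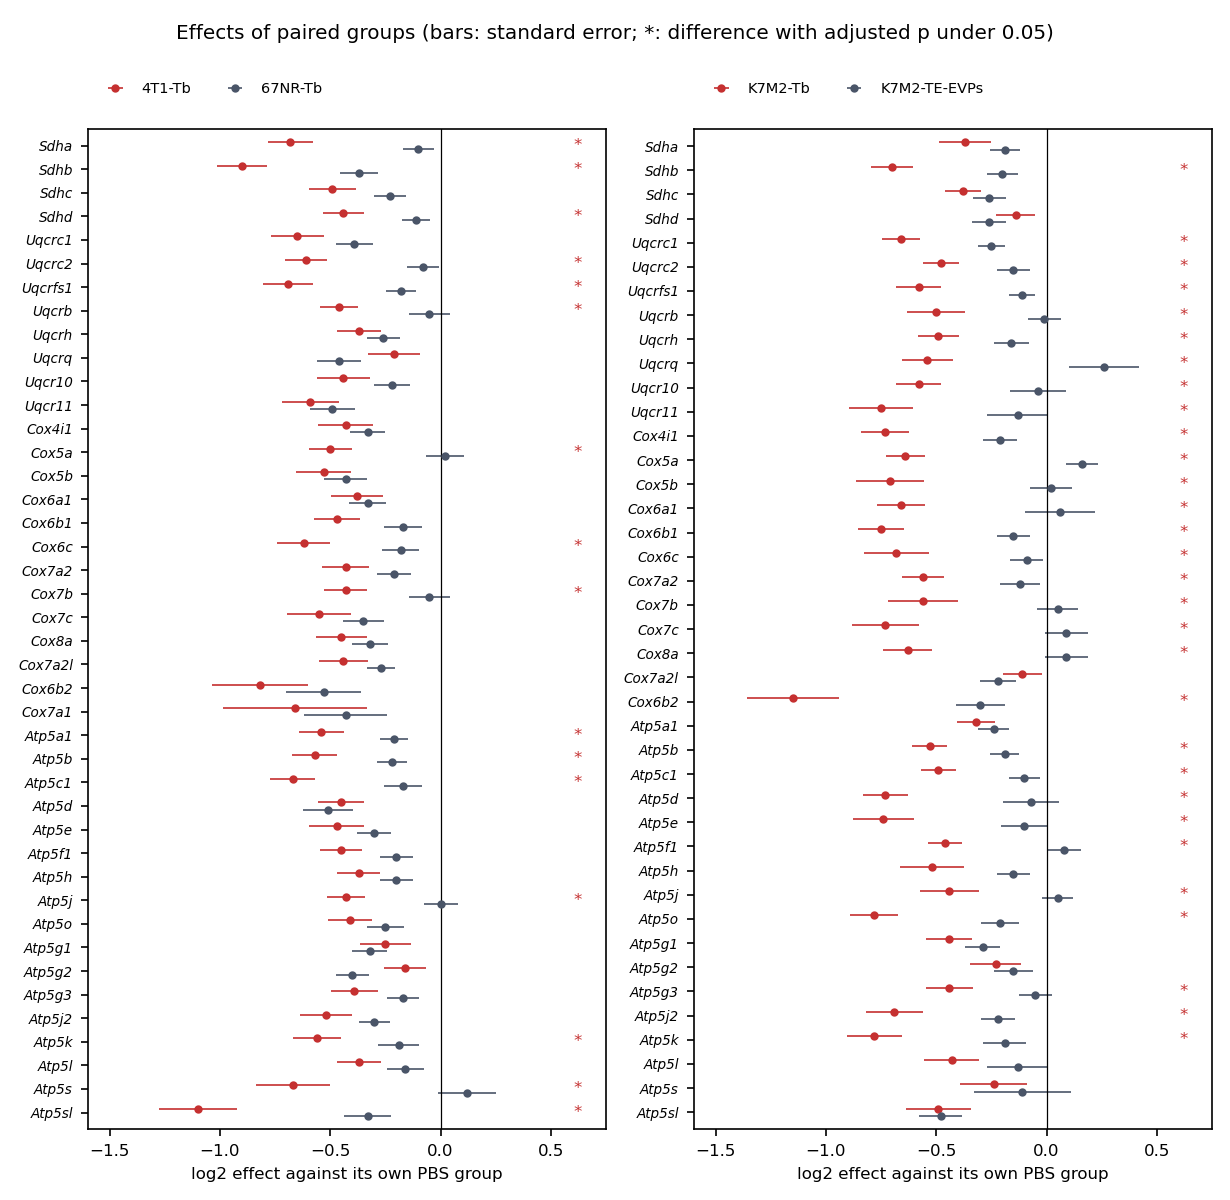
Unshrunken log2 effects of 4T1-Tb and 67NR-Tb (left) and of K7M2-Tb and K7M2-TE-EVPs (right), each against its own PBS group, with bars for 1 standard error. An asterisk marks a difference with an adjusted p under 0.05, in 16 members on the left and 30 on the right. All asterisks stand where the first-named group is lower.

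For B16F10 the tumour and its TE-EVPs differed in 1 of 41 members, where 1.58% of 11028 genes had a lower and 1.04% a higher effect in B16F10-Tb. That member was Atp5b, with effects of -0.61 in B16F10-Tb and -0.09 in B16F10-TE-EVPs and a difference of -0.52 ± 0.16 (adjusted p = 0.0377). It was no longer called with wider errors. TE-EVPs of B16F10 went with a deeper fall than CL-EVPs in 9 of 41 members and a shallower one in 0, where 1.14% of 10319 genes had a lower and 1.69% a higher effect after TE-EVPs. They were led by Cox7b (-0.47 ± 0.09, adjusted p = 0.00159), Cox7a2 (-0.39 ± 0.09, 0.00516), Atp5j (-0.33 ± 0.09, 0.017) and Atp5j2 (-0.30 ± 0.08, 0.0181). With errors 25% larger none of the 9 was called, and 3505 genes had no recoverable effect in this pair.

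B16F10-Tb and B16F1-Tb differed in 0 of 41 members by this test, where 4.81% of 12118 genes had a lower and 4.79% a higher effect in B16F10-Tb, and 2 members had an unadjusted p under 0.05. Those were Cox7a2l (-0.39 ± 0.16) and Uqcrfs1 (0.36 ± 0.16). The members' median difference was 0.08. The counts of 12 and 34 members called in these tables are therefore not shown to differ in effect.

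The tissue isoforms Cox4i2, Cox6a2, Cox7a1, Cox7b2, Cox8b and Cox8c had little or no RNA, with base means from 0 to 83.8 in the authors' deposited tables, and Cox7b2 and Cox8c had an adjusted p in none. Of these, Cox7a1 alone was called, at -0.67 in K7M2-Tb of the authors' deposited tables. The exception among isoforms was Cox6b2, which in other mouse tissues is known as the testis form of subunit 6b. Its base mean was 190 in 67NR-Tb, 207 in 4T1-Tb, 230 in K7M2-Tb and 338 in the K7M2 EVP tables, all from BALB/c mice. It was between 5.19 and 30.2 in the C57BL/6 tables and 3.52 in hepatocytes, per the authors' deposited tables.

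Per kilobase, Cox6b2 made up 5.42% to 8.04% of the RNA of both 6b genes in BALB/c tables and 0.211% to 0.534% in C57BL/6 tables. Strain goes with tumour line here, and levels across tables are not a test. In the 3 BALB/c tumour tables Cox6b2 was lower, at -0.82 ± 0.22 in 4T1-Tb (adjusted p = 0.000696), -1.08 ± 0.22 in K7M2-Tb (5.75e-07) and -0.53 ± 0.17 in 67NR-Tb (0.0148) of the authors' deposited tables. After K7M2-TE-EVPs it was at -0.19 and after K7M2-CL-EVPs at -0.06, without a call, in the authors' deposited tables.

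**Figure D5:**
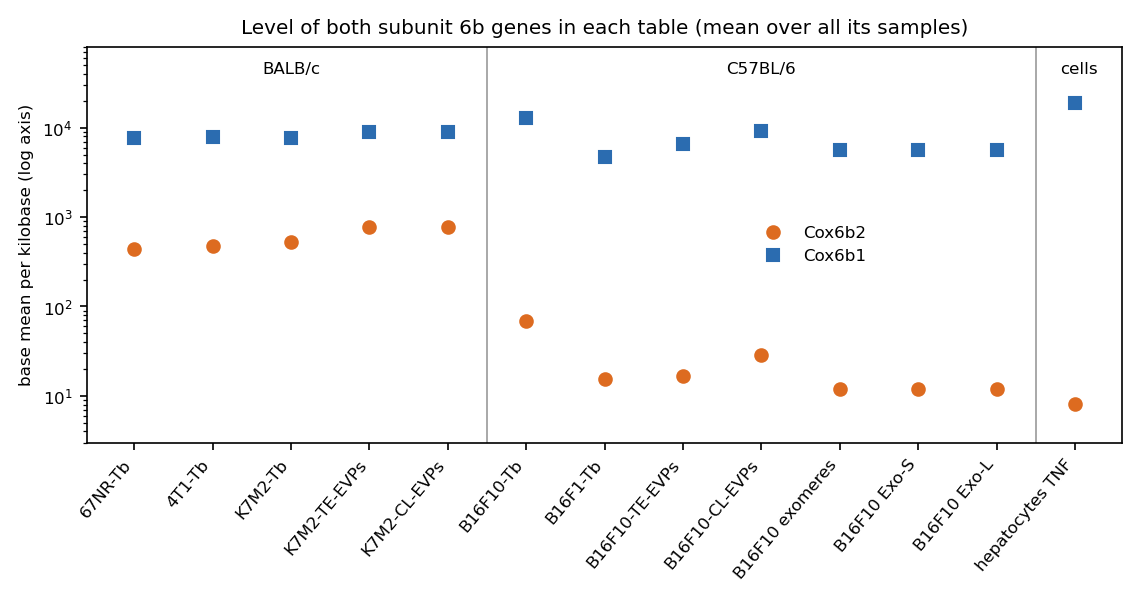
Base mean per kilobase (log axis) of Cox6b2 (orange circles) and Cox6b1 (blue squares) in each of the authors' deposited tables, as the mean over all samples of the fit. Cox6b2 lies between 437 and 777 in the BALB/c tables and between 11.9 and 69.5 in the C57BL/6 tables, while Cox6b1 lies between 4700 and 12900 in the liver tables.

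Genes that work with these complexes were counted in lists. The share of all tested genes called lower was 21% in 4T1-Tb, 12.9% in K7M2-Tb, 17.1% in B16F1-Tb, 9.42% in 67NR-Tb and 5.25% in B16F10-Tb. It was 3.37% after B16F10-TE-EVPs, 4.1% after Exo-L and 13.2% in hepatocytes. Nuclear complex I subunits moved with the members: 33 of 35 tested were lower in 4T1-Tb, 34 of 36 in K7M2-Tb, 30 of 36 in B16F1-Tb, 20 of 35 in 67NR-Tb, 8 of 35 in B16F10-Tb, 19 of 36 after B16F10-TE-EVPs, 18 of 36 after Exo-L and 13 of 36 in hepatocytes, and none was higher in these 8 tables. Cyc1, the cytochrome c1 subunit of complex III that the symbol rule leaves out, was lower in 9 tables, at -0.61 ± 0.10 in 4T1-Tb, -0.63 ± 0.09 in K7M2-Tb and -0.59 ± 0.09 in B16F1-Tb of the authors' deposited tables. With it, 4 of 5 such subunits of complexes III and IV were lower in 4T1-Tb, and 4 of 5 in K7M2-Tb. Of 3 complex V genes outside the rule, 2 were lower in 4T1-Tb and 3 in K7M2-Tb, among them Atpif1, the inhibitor of ATP synthase, at -0.34 in K7M2-Tb and -0.10, without a call, in 4T1-Tb of the authors' deposited tables.

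Of the assembly factors, those lower in K7M2-Tb were 5 of 22 for complex IV, 3 of 6 for complex III, 1 of 4 for complex V and 0 of 4 for complex II. Of all tested genes 12.9% were lower there. In 4T1-Tb the counts were 15 of 22, 4 of 6, 3 of 4 and 2 of 4, against 21% of all tested genes. Fmc1, an assembly factor of complex V, was at -0.87 (adjusted p = 1.32e-12) in the authors' deposited K7M2-Tb table. Tricarboxylic acid cycle enzymes had 11 of 13 lower in 4T1-Tb, 6 of 13 in K7M2-Tb (with 1 higher), 13 of 13 in B16F1-Tb and 6 of 13 after Exo-L. Idh3b, a subunit of isocitrate dehydrogenase, led in B16F1-Tb at -0.91 (adjusted p = 1.33e-41) in the authors' deposited table. Mitochondrial import and chaperone genes had 7 of 10 lower in 4T1-Tb, 5 of 10 in K7M2-Tb and 6 of 10 in B16F1-Tb. A list of 13 mitochondrially encoded respiratory genes was looked up by symbol, and 0 were found in any comparison, so they could not be followed.

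The carriers that feed complex V split. Slc25a3, the phosphate carrier, fell in 4T1-Tb (-0.35), K7M2-Tb (-0.38), B16F1-Tb (-0.37), Exo-L (-0.24) and hepatocytes (-0.15) of the authors' deposited tables. Slc25a4, the ADP and ATP exchanger that muscle mainly uses, rose in 4T1-Tb (0.93, adjusted p = 3.14e-06), B16F1-Tb (0.81, 0.000159), B16F10-TE-EVPs (0.42, 0.00684), Exo-S (0.62, 0.000328), Exo-L (0.77, 4.61e-06) and hepatocytes (0.27, 0.00205) of the authors' deposited tables. Slc25a5, the exchanger of most tissues, fell in 4T1-Tb (-0.52), K7M2-Tb (-0.32), B16F10-Tb (-0.55) and B16F10-TE-EVPs (-0.22) and was -0.10 after Exo-L in the authors' deposited tables, without a call.

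Regulators of respiratory genes were counted as a list of 13. In 4T1-Tb 9 of 13 were lower and 2 higher (against 21% of all tested genes lower and 22.4% higher), led by the orphan receptor Esrrg at -1.85 (adjusted p = 1.34e-17), per the authors' deposited table. In K7M2-Tb 1 was lower and 1 higher (against 12.9% and 15.1%) and in B16F1-Tb 3 were lower and 1 higher (against 17.1% and 17.2%), per the authors' deposited tables, and the shares lower there are near those of all genes. Ppargc1a, a coactivator of mitochondrial gene programmes, was at -0.73 ± 0.25 in 4T1-Tb (0.0094) and -1.06 ± 0.13 in hepatocytes (1.66e-15), and was not called in the other 11 of the authors' deposited tables. Ppargc1b was lower in 4T1-Tb (-1.36 ± 0.30, adjusted p = 2.61e-05), B16F1-Tb (-0.99 ± 0.39, 0.00219) and K7M2-CL-EVPs (-0.52 ± 0.40, 0.0164) of the authors' deposited tables, and not called in the others. Factors that read the ERR, ETS and NRF1 motifs were looked at by name, and none is given for the YY1 and CRE motifs. Esrra, the receptor that reads the ERR motif, was lower in B16F1-Tb (-0.75), 67NR-Tb (-0.52), 4T1-Tb (-0.50) and K7M2-CL-EVPs (-0.23) of the authors' deposited tables. Gabpa, whose factor reads the ETS motif of Uqcrh and Atp5h, was at -0.28 in 4T1-Tb and 0.15 in hepatocytes, and Nrf1 at 0.42 in 4T1-Tb, all called, in the authors' deposited tables. Neither was called in any other of them.

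Several member genes start back to back with another coding gene. With a start on the other strand within 1000 bases upstream, 10 members had such a neighbour. Lrrc41, beside Uqcrh, was lower in 1 of 13 of the authors' deposited tables, where Uqcrh was lower in 8, and Kctd2, beside Atp5h, in 1, where Atp5h was lower in 8. Ccdc127, whose start lies 29 bases from that of Sdha, was lower in 0 of 13 deposited tables of the authors and higher in 1, where Sdha was lower in 6. These counts describe the pairs and were not tested as differences.

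Markers of other cell types changed in the same livers, and their part in the falls was not tested. Neutrophil markers were higher in 7 of 7 tested genes in 4T1-Tb (median fold 5.72), 10 of 10 in K7M2-Tb (7.11), 9 of 9 in B16F1-Tb (4.23), 1 of 1 in 67NR-Tb (0.65) and 4 of 5 in B16F10-Tb (1.47) of the authors' deposited tables. Their summed base mean was 24397 in 4T1-Tb, 3663 in K7M2-Tb, 477 in B16F1-Tb, 61.2 in 67NR-Tb and 735 in B16F10-Tb. After EVPs, neutrophil markers were higher in 0 of 3 tested genes with B16F10-TE-EVPs, 1 of 4 with Exo-S and 4 of 7 with Exo-L. Kupffer cell markers were higher in 9 of 9 tested genes in K7M2-Tb, B16F1-Tb, 4T1-Tb, B16F10-TE-EVPs and Exo-L, in 8 of 9 in 67NR-Tb, in 6 of 9 after Exo-S, in 1 of 7 in B16F10-Tb, in 8 of 9 after B16F10-CL-EVPs and exomeres, where no member was lower, and in 0 of 9 after either K7M2 EVP.

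The hepatocyte markers, which include Alb and Ttr, were present in every liver table with a summed base mean between 2339640 and 4137580, and none was at 0. Of these 8 markers, 3 were lower and 2 higher in 4T1-Tb, 3 lower in K7M2-Tb, 2 lower and 2 higher in B16F1-Tb, 1 lower and 1 higher in 67NR-Tb and 2 lower and 2 higher in B16F10-Tb. After Exo-L 5 were lower, after Exo-S 2 and after exomeres 3. Medians of the hepatocyte markers lay between -0.22 and 0.02 over the authors' deposited liver tables. Erythroid markers were higher in 6 of 7 tested genes in B16F1-Tb and 7 of 7 in K7M2-Tb, and in 1 of 6 in 4T1-Tb, beside falls of the members in all 3. Sinusoidal endothelial markers were higher in 8 of 8 in B16F1-Tb, 7 of 8 in 67NR-Tb and 4 of 8 in 4T1-Tb, and stellate cell markers in 6 of 8 in 4T1-Tb, against 4 of 8 lower in K7M2-Tb. T and B cell markers were higher in at most 4 of 8, in B16F10-Tb and Exo-L. Muscle markers had at most 3 tested genes in a table, with 1 higher in B16F10-Tb, B16F1-Tb and 4T1-Tb and 1 lower in hepatocytes. Brown fat markers were higher in 2 of 3 tested genes in K7M2-Tb (median fold 1.02), lower in 1 of 2 in B16F10-Tb (-0.83), lower in 1 and higher in 1 of 4 in 4T1-Tb (0.36) and lower in 2 of 2 in hepatocytes (-0.78) of the authors' deposited tables. No muscle or brown fat marker was called in the other tables, and their part in the falls was not tested.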

How the data were processed

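Poly(A)-selected stranded libraries were made from frozen liver or from hepatocyte RNA, per the labels' protocols. The submitters' processing notes name bcl2fastq 2.19, TopHat2 2.0.11, Cufflinks 2.1.1, DESeq2 and the mm9 build. The authors deposited 13 DESeq2 comparison tables, each holding a base mean (normalised signal averaged over all samples), a log2 fold with its error and p-values, and 3 of the deposited tables, those keyed by RefSeq symbol, also hold a Wald score. Fold over error equals that score, and the folds of the 10 keyed by Ensembl identifier are shrunken. The tables hold no values per sample, so the planned count test did not apply, the authors' calls were used, and depth per sample is unknown.

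Shrunken folds were returned to the unshrunken scale with a Cauchy prior whose width was fitted per table, a form chosen after values were seen. After this fit, the recovered effect over its error missed the score of the p-value by a median of 0.0157 in B16F1-Tb, 0.0957 after B16F10-CL-EVPs and 0.166 after exomeres. Differences of effects used a normal approximation from the authors' errors, with Benjamini-Hochberg adjustment over all genes. The procedure was run on simulated data that were shrunken and returned with the same prior form and width. That run could not show whether the form or width is right for the authors' folds. Members and lists were chosen with earlier results of these data known. The named genes were, per comparison, the 4 members of smallest adjusted p and a panel of core subunits, and up to 4 genes of a list. Promoters to print, the length split, divergent neighbours, levels per kilobase and the factors that read the motifs were chosen after values were seen, so that a printed promoter with a motif was partly selected for it. Of the 42687 Ensembl identifiers, 42250 are in GENCODE vM21, with 47 of 47 members. Python 3.11.15, pandas 2.3.3, numpy 2.4.6, scipy 1.17.1 and matplotlib 3.10.9 were used.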

Additional observations from a re-analysis of the deposited data

Results flagged for a closer look

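The members below differed in effect between comparisons with separate PBS groups, by the test of the difference itself with an adjusted p under 0.05. Each difference is on the unshrunken log2 scale, and all were negative, so that the group named first had the lower effect.

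For the effect of 4T1-Tb minus that of 67NR-Tb, 16 members differed. Complex II differences were -0.58 for Sdha, -0.53 for Sdhb and -0.34 for Sdhd. In complex III they were -0.54 for Uqcrc2, -0.51 for Uqcrfs1 and -0.41 for Uqcrb. Those of complex IV were -0.52 for Cox5a, -0.44 for Cox6c and -0.38 for Cox7b. Complex V had differences of -0.50 for Atp5c1, -0.76 for Atp5sl, -0.79 for Atp5s, -0.43 for Atp5j, -0.35 for Atp5b, -0.33 for Atp5a1 and -0.37 for Atp5k.

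For the effect of K7M2-Tb minus that of K7M2-TE-EVPs, 30 members differed. The complex II difference was -0.50 for Sdhb. In complex III they were -0.80 for Uqcrq, -0.47 for Uqcrfs1, -0.41 for Uqcrc1, -0.53 for Uqcr10, -0.49 for Uqcrb, -0.62 for Uqcr11, -0.32 for Uqcrc2 and -0.33 for Uqcrh. Those of complex IV were -0.80 for Cox5a, -0.71 for Cox8a, -0.60 for Cox6b1, -0.81 for Cox7c, -0.73 for Cox5b, -0.52 for Cox4i1, -0.72 for Cox6a1, -0.59 for Cox6c, -0.85 for Cox6b2, -0.61 for Cox7b and -0.44 for Cox7a2. Complex V had differences of -0.54 for Atp5f1, -0.57 for Atp5o, -0.66 for Atp5d, -0.59 for Atp5k, -0.64 for Atp5e, -0.38 for Atp5c1, -0.49 for Atp5j, -0.34 for Atp5b, -0.47 for Atp5j2 and -0.39 for Atp5g3.

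The effect of B16F10-Tb minus that of B16F10-TE-EVPs was -0.52 for Atp5b. For B16F10-TE-EVPs minus B16F10-CL-EVPs, the 9 differences were -0.47 for Cox7b, -0.39 for Cox7a2, -0.33 for Atp5j, -0.30 for Atp5j2, -0.42 for Uqcrb, -0.30 for Atp5c1, -0.29 for Atp5h, -0.35 for Atp5k and -0.27 for Cox6c. Batches cannot be told apart from the groups of these pairs.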

How the results depend on the processing

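Of 185 alternative values for 44 results, 169 kept their direction and size class, 16 did not and 0 reversed. Only medians could be scored as reversed, since counts had no such class. Counts of members called higher were all 0, and most of their alternatives took a part of the same calls and could only return 0. The total of 169 is therefore no measure of how robust the results are. With a threshold of 0.01 on the adjusted p, the members lower were 16 in 67NR-Tb, 2 after K7M2-TE-EVPs, 7 after Exo-S and 11 after Exo-L. Adjustment over every gene with a p left 3 after K7M2-TE-EVPs, and counting only structural subunits left 0 after K7M2-CL-EVPs, since Atp5sl is not one. For differences of effects, errors 25% larger left 10 members for 4T1-Tb against 67NR-Tb, 19 for K7M2-Tb against K7M2-TE-EVPs, 0 for B16F10-Tb against B16F10-TE-EVPs and 0 for B16F10-TE-EVPs against B16F10-CL-EVPs. The 0.01 threshold left 10 for 4T1-Tb against 67NR-Tb, 0 for B16F10-Tb against B16F10-TE-EVPs and 2 for B16F10-TE-EVPs against B16F10-CL-EVPs. Folds and errors as deposited gave 3 for B16F10-Tb against B16F10-TE-EVPs and 2 for B16F10-TE-EVPs against B16F10-CL-EVPs, and a prior width from genes without counts, an alternative added after seeing the data, gave 2 for B16F10-Tb against B16F10-TE-EVPs. The cause was not tested. No paired analysis was possible because the tables hold no values per sample, and a replicate block and leaving out replicates were not run for the same reason.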
